A study of Mus musculus with 8 samples.

Results

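Cytoplasmic ribosomal proteins are the protein part of the ribosomes that translate nuclear-encoded mRNA, and their genes were read here across 4 groups of sorted mouse T cells. Gene rows were taken whose name is Rpl or Rps followed by a number, with an optional a, l, l1 or x, or one of the stalk names Rplp0 to Rplp2, or Rpsa. Rows marked as pseudogenes by "-ps" were left out, and at least 1 TPM (a transcript's share of its library, corrected for transcript length) was required in at least 2 libraries. Of 84 such rows 81 met this, out of 45232 genes listed, and 49 encode large-subunit and 32 small-subunit proteins. The 3 rows below the limit lay far from it. Rps12l1 was listed at 0 in all 8 libraries, while the highest value of Rpl10l was 0.0744 TPM and that of Rpl3l was 0.0720 TPM. The lowest row inside it was Rpl39l, with a mean of 3.73 TPM.

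RNA came from CD4+ CD25+ T cells, a gate rich in regulatory T cells, of C57BL/6 mice, and every library was made from at least 500 cells. The groups were Id2 CKO (called KO) visceral adipose tissue, WT visceral adipose tissue, Id2 CKO spleen and WT spleen, with 2 libraries each, numbered 2 and 3 and named as experiments in the table's header. Id2 encodes an inhibitor of E-protein transcription factors; the sources used here give neither the Cre line behind the conditional deletion nor the age of the mice. No label ties libraries to single mice, so every p-value rests on the spread between libraries alone, and that spread may be technical.

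Ribosomal protein mRNAs are among the most abundant in growing cells. In mammals most of them begin at a C followed by a run of pyrimidines, the terminal oligopyrimidine (TOP) tract, through which the kinase complex mTORC1 and the RNA-binding protein LARP1 control their translation and stability. Activated T cells enlarge their ribosome pool before they divide, which makes these genes a common measure of growth in lymphocytes.

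The start regions show what most of these genes share in sequence. Windows of 300 bases, reaching 250 bases before and 50 bases after each annotated start, were available for 60 of the 81 genes in RefSeq (GRCm38.p6). The letters CTTTC, read on the sense strand anywhere in the window, were in 40 of the 60 windows (66.7%), against 36.3% of the 9413 tested genes with a window. A TOP tract lies at the start of the mRNA, so this count does not measure TOP tracts. The letters CTTCCG on either strand, the core of ETS-family sites, were in 41 of 60 (68.3%), against 35.6% of those genes. TATAAA on the sense strand was in 6 of 60 (10.0%), against 5.30%. CTTTC and CTTCCG can overlap by a shared C, and a match is a description of the window, not a bound site.

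Stretches of 50 bases, 30 before and 20 after the annotated start, are shown for Rps6, Rplp2 and Rpl38, whose roles are described below, for Rps27 as the main copy of Rps27l, and for 2 paralogs, so that the start of a typical ribosomal protein gene can be set beside that of a paralog. Capitals mark CTTTC on the sense strand, or CTTCCG on either strand (written CGGAAG when it lies on the other one).
Rps6 (chr4:86857348-86857397, minus strand): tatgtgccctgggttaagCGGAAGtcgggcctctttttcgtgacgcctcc
Rplp2 (chr7:141447621-141447670, plus strand): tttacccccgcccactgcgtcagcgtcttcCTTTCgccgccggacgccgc
Rpl38 (chr11:114668550-114668599, plus strand): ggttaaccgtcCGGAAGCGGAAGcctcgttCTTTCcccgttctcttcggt
Rps27 (chr3:90213629-90213678, minus strand): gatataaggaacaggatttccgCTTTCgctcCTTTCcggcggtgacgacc
Rps27l (chr9:66946056-66946105, plus strand): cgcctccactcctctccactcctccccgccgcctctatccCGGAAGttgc
Rpl22l1 (chr3:28805478-28805527, plus strand): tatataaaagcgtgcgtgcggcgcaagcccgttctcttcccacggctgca
Rpl38 held both motifs, and the window of the paralog Rpl22l1 held neither of them. This pair does not stand for a split between paralogs and other members. In the longer windows counted above, the paralogs Rps27l and Rpl39l held both motifs, and the paralog Rpl7l1 held neither. Rpl9, Rpl14, Rpl27 and Rps4x, which are not paralog rows, also held neither.

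Before the members, the libraries need a word, because several stood apart. Id2 was at 1499 and 1298 TPM in the KO adipose libraries, 2249 and 3679 in the WT adipose libraries, 72.1 and 265 in the KO spleen ones, and 274 and 346 in the WT spleen ones, so it was below both WT libraries in both KO libraries of each tissue but far from 0, and the table does not say which part of the transcript the deletion removes. Foxp3, which defines regulatory T cells, was at 7.4 and 98.4 TPM in the KO adipose libraries, 126 and 93.5 in the WT adipose libraries, 8.27 and 226 in KO spleen and 169 and 266 in WT spleen. Foxp3 was low in both KO libraries numbered 2, but the sum of the 6 regulatory T cell markers that include it was not. They summed to 2678 and 1355 TPM in the KO adipose libraries and 2625 and 2021 in the WT adipose ones. In spleen they summed to 4051 and 3534 TPM in KO and 4696 and 3975 in WT. Tnfrsf18 and Tnfrsf4 held most of each sum, so the sum says little of the other markers. Il2ra was lowest of the adipose libraries in KO adipose library 2 (33.8 TPM) and lowest of the spleen libraries in KO spleen library 2 (71.8 TPM). Ctla4 (210 TPM) and Ikzf2 (73.5 TPM) were also lowest of the spleen libraries in KO spleen library 2. In KO adipose library 2 they were at 267 and 43.2 TPM, not the lowest of the adipose libraries. KO adipose library 3 carried other cells' transcripts: the 11 macrophage and monocyte markers summed to 11182 TPM there, against 15.8 in the other KO adipose library, 9.43 and 21.05 in the WT adipose libraries, 13.3 and 105 in the KO spleen ones, and 614 and 156 in the WT spleen ones. The 6 adipocyte markers summed to 159 and 14378 TPM in the KO adipose libraries and 29.4 and 2251 in the WT adipose libraries, and to at most 14.4 in spleen. The 9 fibroblast and mesothelium markers summed to 729.7 and 3591 TPM in the KO adipose libraries and to 0.329 and 4.80 in the WT adipose libraries; Dcn was listed at 0 in KO spleen library 2 and WT spleen library 3. The 12 T cell core markers summed to 21350.1 and 7327 TPM in the KO adipose libraries, 16471 and 14076 in the WT adipose libraries, 25365 and 19043 in KO spleen, and 24463 and 18508 in WT spleen. The 6 erythroid markers summed to 34707 and 65674 TPM in the KO adipose libraries, 38.4 and 3798 in the WT adipose libraries, 1186 and 107785 in KO spleen, and 15715 and 46708 in WT spleen. Both KO adipose libraries were above both WT adipose ones. The 6 B cell markers summed to 56.1 and 12.6 TPM in the KO adipose libraries, 46.9 and 26.5 in the WT adipose libraries, 384 and 82.4 in KO spleen, and 434 and 82.5 in WT spleen. Each adipose library was below each spleen library. The 5 endothelium markers summed to 451 TPM in KO adipose library 3 and to 5.59 to 58.4 TPM in the other 7 libraries. The part of these other cells in the results was not tested beyond the values given without single libraries.

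Ribosomal protein transcripts together took the smallest share of the library in KO adipose tissue. The 81 genes summed to 8.44% and 6.26% of all TPM in the KO adipose libraries, 10.3% and 9.68% in WT adipose tissue, 13.4% and 12.7% in KO spleen, and 10.6% and 17.4% in WT spleen. Both KO adipose libraries lay below the other 6, each of the 4 adipose libraries lay below each of the 4 spleen libraries, and the WT spleen libraries lay on both sides of the KO spleen ones. The means were 7.35 ± 1.54% in KO adipose tissue, 9.97 ± 0.405% in WT adipose tissue, 13.1 ± 0.491% in KO spleen and 14.0 ± 4.79% in WT spleen (SD, n = 2 each). In such bulk samples fewer cells of a type and less of an RNA per cell cannot be told apart. With hemoglobin and mitochondrially encoded genes taken out of the total, the mean share was 8.71 ± 1.64% in KO adipose tissue, 11.0 ± 0.492% in WT adipose tissue, 16.2 ± 0.127% in KO spleen and 17.2 ± 5.53% in WT spleen.

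**Figure D1:**
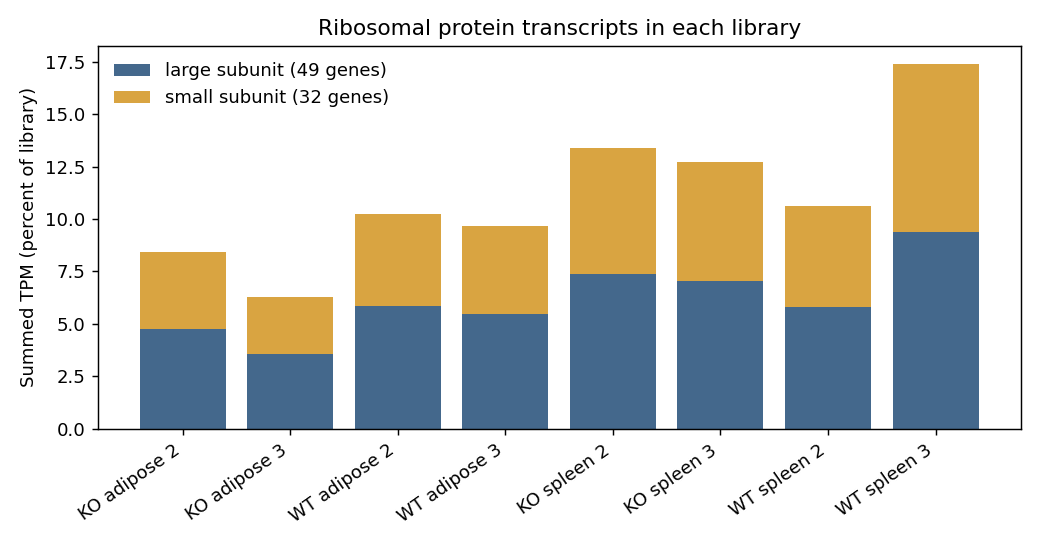
Summed TPM of the 81 ribosomal protein genes as a percent of each library (y axis), split into large-subunit (blue, below) and small-subunit genes (yellow, above), for the 8 libraries (x axis). The KO adipose bars are the lowest, at 8.44% and 6.26%, and WT spleen library 3 is the highest, at 17.4%.

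Single members followed the sums. Of the 81 genes 66 had their lowest value in KO adipose library 3 and 11 in KO adipose library 2, while 61 had their highest in WT spleen library 3 and 15 in KO spleen library 2. Among the 100 genes of highest TPM in a library, 22 and 16 were ribosomal protein genes in KO adipose tissue, 23 and 25 in WT adipose tissue, 33 and 31 in KO spleen, and 27 and 39 in WT spleen. The median member stood at 621 and 494 TPM in the KO adipose libraries, 697 and 669.8 in WT adipose tissue, 1091 and 1010 in KO spleen, and 763 and 1419 in WT spleen.

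Members differed from one another far more than one member differed between libraries. The SD of log2(TPM + 1) over the 81 genes was 1.93 and 1.73 in KO adipose tissue, 1.74 and 1.63 in WT adipose tissue, 1.75 and 1.82 in KO spleen, and 1.88 and 1.84 in WT spleen. The SD of one gene's log2(TPM + 1) over the 8 libraries had a median of 0.52 over the members, against 0.64 over the 13376 genes tested. The mean TPM of a gene had a median of 844 over the members and 10.9 over the tested genes, so these SDs compare unlike levels. The shares of all tested genes given below are not matched for level either. TPM is corrected for length, so levels can be set side by side. The 5 genes of highest mean included Rpl37a (6443 TPM), Rpl32 (4572 TPM) and Rpl36 (3796 TPM). The 5 of lowest mean were Rpl22 (146 TPM), Rpl27 (105 TPM), Rpl7l1 (91.8 TPM), Rps4l (18.6 TPM) and Rpl39l (3.73 TPM). The steadiest genes were Rps9, Rpl4 and Rpl14, with SDs of 0.30, 0.32 and 0.34, and the most variable were Rps4l, Rpl39l and Rps12, with SDs of 1.34, 1.30 and 1.12.

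**Figure D2:**
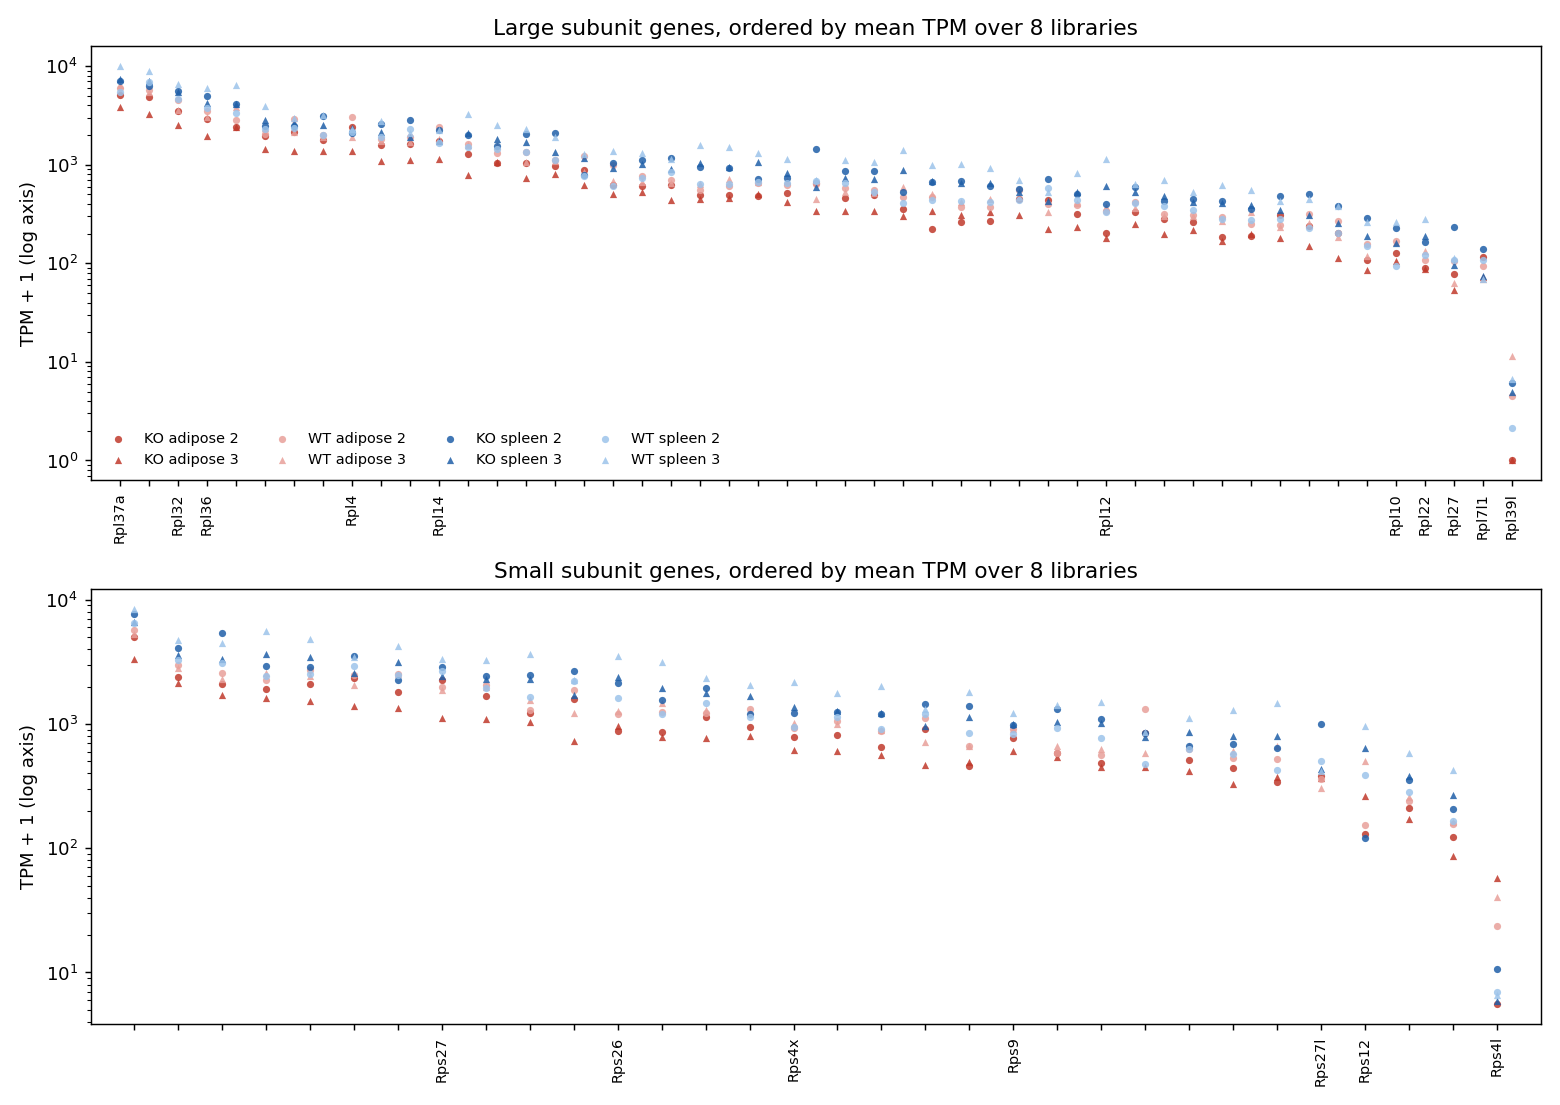
TPM + 1 on a log axis (y) for every large-subunit gene (upper panel) and small-subunit gene (lower panel), ordered along the x axis by mean TPM, with some genes named; colours give the group, circles library 2 and triangles library 3. KO adipose points lie at the lower edge for most genes, and the paralogs Rpl39l and Rps4l lie far below the rest, at means of 3.73 and 18.6 TPM.

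Rpl37a, the most abundant, illustrates the common pattern at 5086 and 3842 TPM in the KO adipose libraries, 6038 and 6505 in the WT adipose libraries, 7097 and 7434 in the KO spleen ones, and 5421 and 10119 in the WT spleen ones. The 2 KO adipose libraries were the lowest and WT spleen library 3 was the highest. Rps9 was among the least variable at 775 and 604 TPM in the KO adipose libraries, 904 and 906 in the WT adipose libraries, 984 and 997 in the KO spleen ones, and 835 and 1235 in the WT spleen ones. Its KO adipose values were again the lowest, and the other 6 lay between 835 and 1235 TPM.

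The acidic stalk of the large subunit, built from Rplp0, Rplp1 and Rplp2, recruits the elongation factors. Rplp0, the stalk base, was at 2156 and 1377 TPM in the KO adipose libraries, 2887 and 2149.6 in the WT adipose libraries, 2499 and 2629 in the KO spleen ones, and 2332 and 2985 in the WT spleen ones. KO adipose library 2 and WT adipose library 3 were nearly level, so the genotypes overlapped there. Rplp1 was at 2439.6 and 2423 TPM in the KO adipose libraries, 2844 and 3879.6 in the WT adipose libraries, 4176 and 4132 in the KO spleen ones, and 3351 and 6408 in the WT spleen ones, and Rplp2 at 489.8 and 340.3 TPM in the KO adipose libraries, 555 and 518 in the WT adipose libraries, 866 and 722 in the KO spleen ones, and 530.0 and 1071 in the WT spleen ones. For Rplp1 and Rplp2 both KO adipose libraries were below both WT adipose libraries. Rpl12, which sits at the base of the stalk, was at 200.2 and 181 TPM in the KO adipose libraries, 342 and 371 in the WT adipose libraries, 395 and 613 in the KO spleen ones, and 329.6 and 1145 in the WT spleen ones. Its KO adipose libraries lay below the other 6, and WT spleen library 3 stood far above the rest.

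Several ribosomal proteins also act in signalling. Rps6, the substrate of the S6 kinases downstream of mTORC1, was at 939.5 and 799.8 TPM in the KO adipose libraries, 1325 and 1241 in the WT adipose libraries, 1211 and 1666 in the KO spleen ones, and 1131 and 2077 in the WT spleen ones. Rpl5 and Rpl11 bind Mdm2 and so stabilise p53 when ribosome assembly fails. Rpl5 was at 220.0 and 339 TPM in the KO adipose libraries, 467 and 501 in the WT adipose libraries, 667 and 676 in the KO spleen ones, and 434 and 993 in the WT spleen ones, and Rpl11 at 264 and 215 TPM in the KO adipose libraries, 307 and 298 in the WT adipose libraries, 448 and 419.6 in the KO spleen ones, and 344 and 531 in the WT spleen ones. For all 3 of these genes both KO adipose libraries were below both WT adipose libraries. Rps19, which is mutated in human Diamond-Blackfan anaemia, was at 912 and 466 TPM in the KO adipose libraries, 1115 and 720.2 in the WT adipose libraries, 1448 and 970.4 in the KO spleen ones, and 1211 and 1329 in the WT spleen ones. Its KO and WT adipose libraries overlapped, and the libraries numbered 3 were the lower ones in each group but WT spleen.

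Rpsa, which is also known as the laminin receptor, was at 1794 and 1352 TPM in the KO adipose libraries, 2506 and 2516 in the WT adipose libraries, 2249 and 3164 in the KO spleen ones, and 2478 and 4207 in the WT spleen ones. WT adipose tissue overlapped both spleen groups. Rps27a, made as a fusion with ubiquitin, was at 486 and 451 TPM in the KO adipose libraries, 558 and 623 in the WT adipose libraries, 1091 and 1009.7 in the KO spleen ones, and 763 and 1513 in the WT spleen ones, and here each adipose library was below each spleen library. Rpl38, which in mouse embryos is needed for translation of Hox mRNAs, was at 976 and 804 TPM in the KO adipose libraries, 1109 and 1086 in the WT adipose libraries, 2079 and 1348 in the KO spleen ones, and 1123 and 1917 in the WT spleen ones, again with no overlap between the tissues. Rpl13a, known in human myeloid cells as part of a complex that silences inflammatory mRNAs, was at 445 and 309 TPM in the KO adipose libraries, 555 and 466 in the WT adipose libraries, 573 and 532 in the KO spleen ones, and 439 and 696 in the WT spleen ones. Rpl13a was one of the flatter genes, and WT adipose library 2 was above WT spleen library 2.

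Id2 deficiency in adipose tissue went with lower values for most members, but no member passed the test. Every fold change here and in what follows was computed by limma from log2(TPM + 1) in all 8 libraries, with the Benjamini-Hochberg adjustment of p run over the 13376 genes tested and a threshold of 0.05. Of the 81 genes 79 had a log2 fold change below 0 between KO and WT adipose tissue, with a median of -0.46 and a middle range of -0.55 to -0.39, while 67.7% of all tested genes were below 0, with a median of -0.27. The limma test called 0 of the 81 at an adjusted p under 0.05, where 0.284% of all tested genes were called, and 1 member, Rpl39l, had a lower value at an unadjusted p under 0.05, against 3.87% of all tested genes. For 64 members both KO adipose libraries were below both WT adipose libraries, which was so for 27.5% of all tested genes, and for 1 member, Rps27l, both were above (7.66%). Without KO adipose library 3, the one rich in macrophage and adipocyte transcripts, 71 members were below 0 and their median was -0.26, against -0.40 over all tested genes. The members then stood above the median gene, where with all 8 libraries they stood below it. The erythroid and the fibroblast and mesothelium markers were higher in both KO adipose libraries. Their part in this contrast was not tested.

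Rpl12 had the largest fold change here among genes above 0 TPM in every library, -0.90 ± 0.54 (SE), with an adjusted p of 0.752 by limma. Rpl5 followed at -0.82 ± 0.43, with a limma adjusted p of 0.748. It stood at -0.51 without KO adipose library 2 and -1.13 without KO adipose library 3. Both were lower in 2 of 2 KO libraries. The genes at the other end were paralogs, given with their main copies below.

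In spleen the members of KO and WT cells did not separate. Of the 81 genes 50 had a log2 fold change below 0, with a median of -0.04, while 63.5% of all tested genes were below 0, with a median of -0.12. By limma 0 members were called, where 0.0% of all tested genes were called, and 0 were lower at an unadjusted p under 0.05, against 0.247%. For 0 members did both KO spleen libraries lie below both WT ones, against 13.9% of all tested genes, and for 0 did both lie above (5.93%). The direction depended on which WT library was kept: without WT spleen library 3 the median was 0.38 and 7 members were below 0, and without WT spleen library 2 it was -0.44 and 74 were below 0. Rps12 had the fold change furthest from 0, -1.14 ± 0.88 (SE), with a limma adjusted p of 1.0. It was 0.051 without KO spleen library 2 and -2.33 without KO spleen library 3. With the identical copy described below added in it was -0.092.

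Ribosomal protein genes were lower in adipose tissue than in spleen where most tested genes were higher. In WT cells 74 of 81 had a log2 fold change below 0 between adipose tissue and spleen, with a median of -0.48, while 34.1% of all tested genes were below 0, with a median of 0.32. By limma 0 members were called, against 0.164% of all tested genes, and 3, Rps26 and Rps27a among them, were lower at an unadjusted p under 0.05, against 3.1%. In either direction, 28 members had an unadjusted p under 0.05 without WT spleen library 2, 0 without WT spleen library 3 or without either of the WT adipose libraries, and 13 after rescaling TPM without ribosomal protein, hemoglobin and mitochondrial genes. The shares of all tested genes under those settings are not given here, so these counts cannot be set against them. For 34 members both adipose libraries were below both spleen libraries, against 15.1% of all tested genes, and for 1 member, Rps4l, both were above, against 37.8%. Without WT spleen library 3 the median was -0.03 and 52 members were below 0, against a median of 0.43 over all tested genes. Rps26 was at 1202 and 1267 TPM in the WT adipose libraries and 1632 and 3515 TPM in WT spleen, a log2 fold change of -0.96 ± 0.41 (SE) with a limma adjusted p of 0.376. Its groups did not overlap, but the fold change was -0.40 without WT spleen library 3 and -1.51 without WT spleen library 2.

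The same contrast in KO cells had the median furthest from 0 of the 5, and the libraries it compares are not those of the WT one. Both contrasts take their spread from all 8 libraries, so their p-values are not independent. Of the 81 genes 80 had a log2 fold change below 0 between KO adipose tissue and KO spleen, with a median of -0.91 and a middle range of -1.05 to -0.75, while 41.4% of all tested genes were below 0, with a median of 0.16. By limma 0 members were called, against 1.08% of all tested genes, and the smallest adjusted p of a member was 0.186. An unadjusted p under 0.05 with a lower value was found for 39 of 81 members and for 4.15% of all tested genes. In either direction this count was 4 without KO spleen library 2, 7 without KO adipose library 3, 18 without either of the WT adipose libraries, 21 without KO spleen library 3, and 61 after the rescaling. What share of all tested genes had such a p under these settings is not given here. The counts are thus no measure of the members against other genes. All 5 tested B cell markers were also lower in this contrast at an unadjusted p under 0.05. Their part in this contrast was not tested. For 73 members both KO adipose libraries were below both KO spleen libraries, against 14.6% of all tested genes; the 8 others were Rpl3, Rpl4, Rpl7l1, Rpl18, Rpl35, Rps2, Rps4l and Rps12. Without KO adipose library 3 the median was -0.69 with 78 members below 0.

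Rps26 was at 879.8 and 961 TPM in the KO adipose libraries and 2142 and 2399 TPM in KO spleen, a log2 fold change of -1.30 ± 0.41 (SE) with a limma adjusted p of 0.237. Its groups thus did not overlap in either genotype. Rpl12 had a log2 fold change of -1.36 ± 0.54 (SE) between KO adipose tissue and KO spleen, with a limma adjusted p of 0.344. Rpl4, which lines the peptide exit tunnel, was at 2427 and 1386 TPM in the KO adipose libraries, 3046 and 1919 in the WT adipose libraries, 2116 and 2364 in the KO spleen ones, and 2149 and 2282 in the WT spleen ones, and its KO adipose and KO spleen libraries overlapped.

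**Figure D3:**
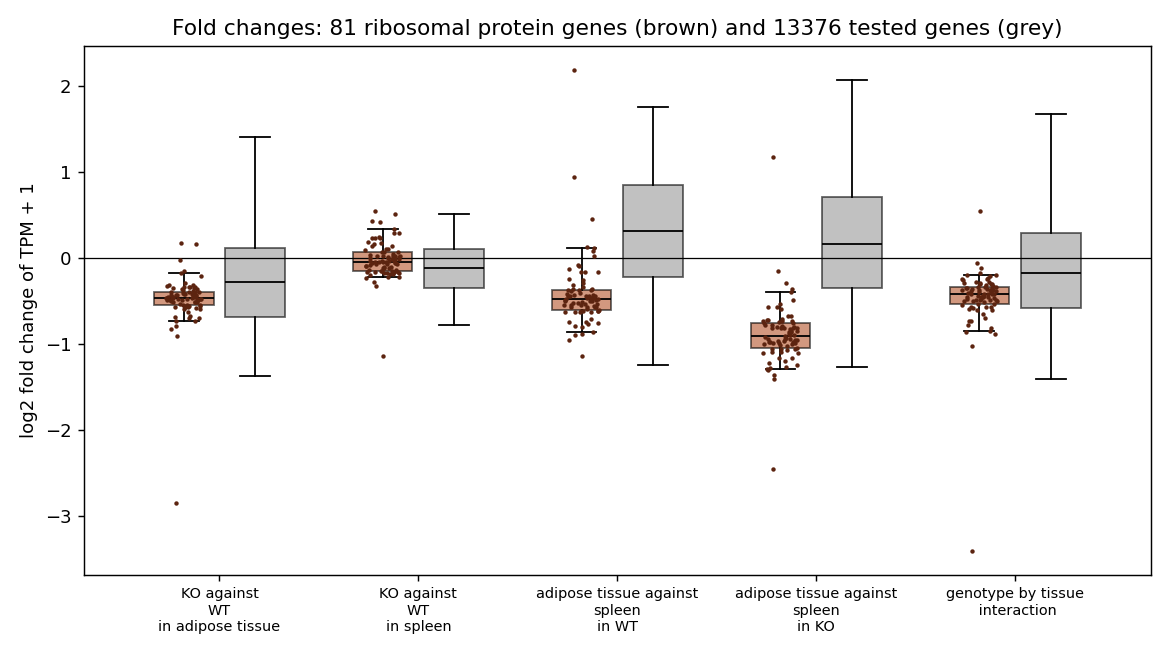
Log2 fold changes of TPM + 1 (y axis) in the 5 contrasts (x axis) for the 81 ribosomal protein genes (brown boxes, 1 dot per gene) and for all 13376 tested genes (grey boxes). Boxes span the quartiles with the median as a line, and whiskers end at percentiles 5 and 95. The member medians are -0.46, -0.04, -0.48, -0.91 and -0.42; the lowest dot in KO against WT adipose tissue, in KO adipose tissue against KO spleen and in the interaction is Rpl39l, which was listed at 0 in both KO adipose libraries, so its position depends on the pseudocount of 1.

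The test of the difference between the tissues in the effect of genotype called 0 of 81 members, against 0.0299% of all tested genes, and 1 member, Rpl39l, was lower at an unadjusted p under 0.05, against 1.03%. The interaction was below 0 for 80 of 81, with a median of -0.42, against a median of -0.17 over all tested genes. Without WT spleen library 2 the median was -0.03 and 46 were below 0, and without WT spleen library 3 it was -0.81 and 80 were below 0. Rpl7a, a large-subunit protein, had an interaction of -0.88 ± 0.62 (SE) with a limma adjusted p of 1.0. It was -0.40 without WT spleen library 2 and -1.37 without WT spleen library 3. It was at 238 and 150.1 TPM in the KO adipose libraries, 318 and 254 in the WT adipose libraries, 498 and 308 in the KO spleen ones, and 228 and 446 in the WT spleen ones.

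The libraries numbered 3 and 2 also differed in the members, and not in the same direction in each group. Library 3 was the higher one for 11 of 81 members in KO adipose tissue (median log2 difference -0.36), for 36 in WT adipose tissue (-0.06), for 36 in KO spleen (-0.09) and for 76 in WT spleen (0.81). Of all tested genes 59.7% were higher in library 3 in KO adipose tissue (median 0.25), 50.9% in WT adipose tissue (0.02), 72.8% in KO spleen (0.47) and 65.9% in WT spleen (0.26).

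The subunits kept nearly one proportion. The summed TPM of large-subunit genes over that of small-subunit genes was 1.30 and 1.30 in KO adipose tissue, 1.33 and 1.30 in WT adipose tissue, 1.22 and 1.23 in KO spleen, and 1.20 and 1.18 in WT spleen. Each adipose library was above each spleen library. The rows marked as pseudogenes and the ribosomal protein rows outside the name pattern were then added. With them the ratios were 1.17 and 1.26 in KO adipose tissue, 1.22 and 1.24 in WT adipose tissue, 1.13 and 1.19 in KO spleen, and 1.13 and 1.14 in WT spleen. The tissues then overlapped. Within the pool of the 81 genes, the parts taken by 73 members overlapped between the tissues. For 5 members the part was higher in every adipose library than in every spleen library, and for 3 it was lower. Rps9, picked after its values were seen, took 0.882% to 0.965% in the adipose libraries and 0.710% to 0.786% in the spleen libraries.

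Only a chosen part of the copies of members was aligned. Among those, 4 members had a row whose transcript has the same sequence over the aligned stretch, called an identical copy here. The named row held the smaller part of the pair. The transcripts differ in length, for example 614 bases for Rpl27 and 411 for Rpl27-ps3, so bases outside that stretch are not shared. The labels do not state how reads were divided between such rows. The transcripts of Rpl10 and Rpl10-ps3 were identical over all 740 aligned bases in GENCODE M21, those of Rpl27 and Rpl27-ps3 over 411, those of Rps27 and Rps27rt over 341, and those of Rps12 and Rps12-ps3 over 494. The opening coding bases (positions 1 to 60 from the start codon) are shown for Rpl10, where both rows read alike.
Rpl10 and Rpl10-ps3: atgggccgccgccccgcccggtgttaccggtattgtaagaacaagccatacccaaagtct
The copy was above the named gene in 8 of 8 libraries for all 4 pairs. Rpl10, which joins the large subunit late in its assembly, was at 127 and 105 TPM in the KO adipose libraries, 166 and 164 in the WT adipose libraries, 227 and 161 in the KO spleen ones, and 93.7 and 259.7 in the WT spleen ones. Rpl10-ps3 was at 1216 and 1594 TPM in the KO adipose libraries, 1738 and 2536 in the WT adipose libraries, 2222 and 3113 in the KO spleen ones, and 1874 and 4679 in the WT spleen ones. The named row thus held 4.76% to 9.44% of the pair, and the pair as a whole ordered the groups as most members did, with the KO adipose libraries lowest.

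Rps12, a small-subunit protein, had the widest range of shares within such a pair. It was at 129 and 264 TPM in the KO adipose libraries, 153 and 504 in the WT adipose libraries, 121 and 634 in the KO spleen ones, and 387 and 969 in the WT spleen ones, with library 3 above library 2 in each group. Rps12-ps3 was at 516 and 415 TPM in the KO adipose libraries, 839 and 708 in the WT adipose libraries, 1243 and 751 in the KO spleen ones, and 519 and 1402 in the WT spleen ones, and the share on Rps12 moved between 8.86% and 45.8% of the pair. Summed, the pair was at 645 and 679 TPM in the KO adipose libraries, 993 and 1212 in the WT adipose libraries, 1364 and 1385 in the KO spleen ones, and 906 and 2371 in the WT spleen ones, and its SD over the libraries was 0.61 on the log2 scale, against 1.12 for Rps12 alone. Both KO adipose libraries were then the lowest of the 8. For Rpl27 the named row held 3.19% to 7.82% of the pair and for Rps27 30.1% to 39.5%, so the low rank of Rpl10 and Rpl27 and the values of all 4 rows are uncertain as measures of their genes. Other members had near copies, such as Rpl14-ps1 (98.9% identity to Rpl14) and Rpl23a-ps3 (99.8% to Rpl23a). Most pseudogene rows were not aligned, so the other members are not shown to be free of shared reads.

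**Figure D4:**
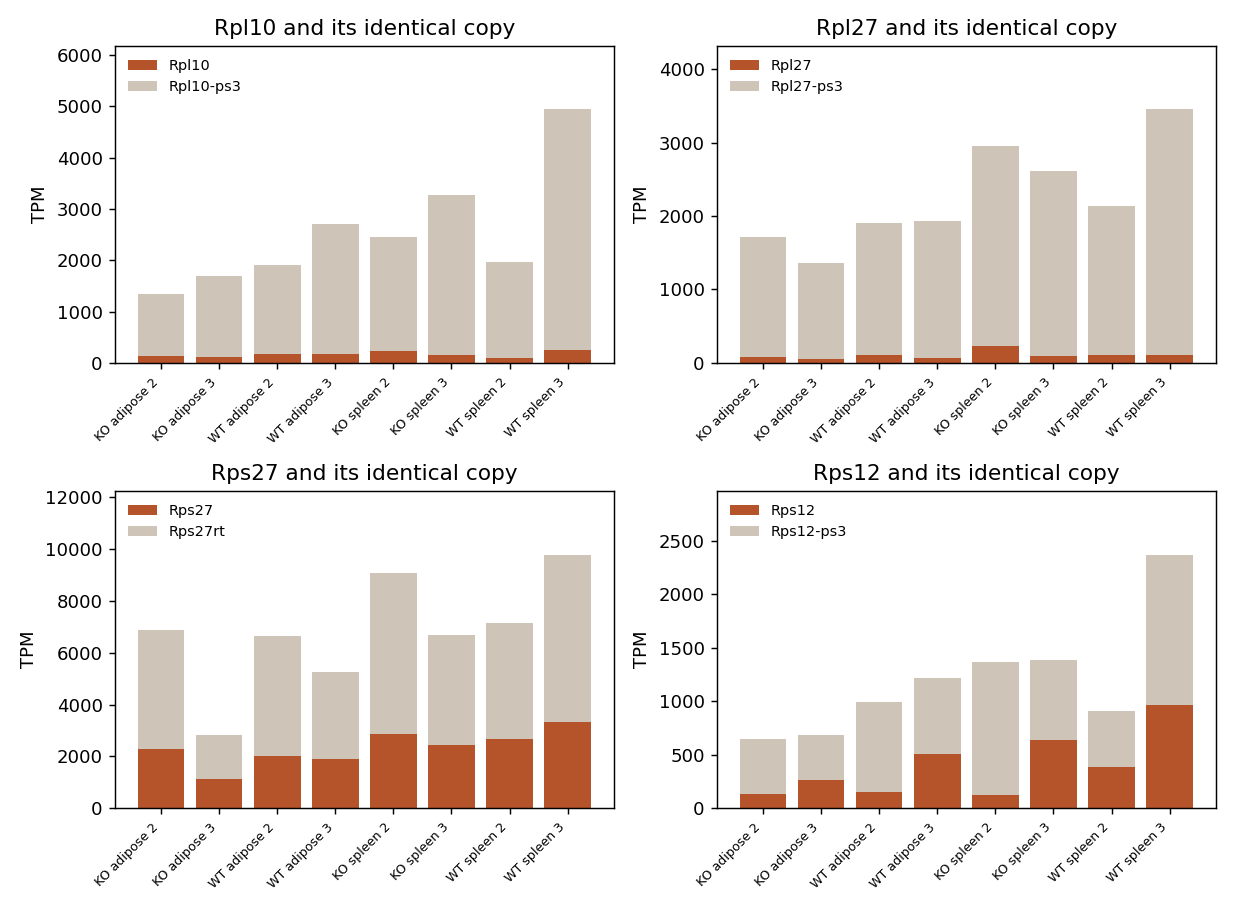
TPM (y axis) of Rpl10, Rpl27, Rps27 and Rps12 (brown) and of the row identical over the aligned stretch (beige, stacked on top) in each of the 8 libraries (x axis). The beige part is the larger in every bar, and the split of Rps12 moves between 8.86% and 45.8% on the named row.

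The name pattern also misses some true ribosomal protein genes. Rps3a1, which encodes a small-subunit protein, was at 2542 and 1792 TPM in the KO adipose libraries, 2719 and 2712 in the WT adipose libraries, 3429 and 3529.9 in the KO spleen ones, and 2975 and 4361 in the WT spleen ones. The order of the groups was that of the members, with KO adipose tissue lowest. Fau, made as a fusion with a ubiquitin-like protein, was at a mean of 279 TPM.

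Paralog rows, made from near copies of a ribosomal protein gene, were 2 of the 3 most variable members. Rps4l, listed in GENCODE as a transcribed processed pseudogene with 80.0% identity to Rps4x, was at 4.59 and 56.2 TPM in the KO adipose libraries, 22.6 and 39.4 in the WT adipose libraries, 9.65 and 4.89 in the KO spleen ones, and 5.91 and 5.6 in the WT spleen ones. It was above all 4 spleen libraries in both WT adipose libraries and in KO adipose library 3, and below them in KO adipose library 2. The log2 fold change between adipose tissue and spleen was 2.19 ± 0.97 (SE) in WT, with a limma adjusted p of 0.385, and 1.17 ± 0.97 in KO, with a limma adjusted p of 0.668. The main copy Rps4x was at 787 and 613 TPM in the KO adipose libraries, 919 and 1021 in the WT adipose libraries, 1228 and 1369 in the KO spleen ones, and 949.6 and 2182 in the WT spleen ones, lowest in KO adipose tissue. Rpl39l, which in mouse is known from male germ cells and has 84.8% identity to Rpl39, was at 0 and 0 TPM in the KO adipose libraries, 3.56 and 10.5 in the WT adipose libraries, 5.05 and 3.99 in the KO spleen ones, and 1.12 and 5.63 in the WT spleen ones. It was listed at 0 in both KO adipose libraries, and its limma adjusted p against WT adipose tissue was 0.297. Rpl39 was at 352 and 303 TPM in the KO adipose libraries, 472 and 593 in the WT adipose libraries, 532 and 878 in the KO spleen ones, and 411 and 1419 in the WT spleen ones. The aligned openings of the coding sequence, positions 1 to 60, show where the paralogs depart from the main copies, with the differing bases in capitals.
Rps4x: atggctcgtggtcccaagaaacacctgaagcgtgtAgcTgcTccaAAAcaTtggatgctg
Rps4l: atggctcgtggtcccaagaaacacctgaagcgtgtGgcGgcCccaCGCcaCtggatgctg
Rpl39: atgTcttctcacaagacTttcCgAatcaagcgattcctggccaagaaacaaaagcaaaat
Rpl39l: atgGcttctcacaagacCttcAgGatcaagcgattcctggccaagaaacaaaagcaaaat
They differ at 7 positions between Rps4x and Rps4l and at 4 positions between Rpl39 and Rpl39l.

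The other paralogs were expressed at levels nearer to their main copies. Rpl22l1, which Rpl22 represses in mouse, was at 306 and 179 TPM in the KO adipose libraries, 245 and 233 in the WT adipose libraries, 479.8 and 349 in the KO spleen ones, and 279.9 and 424 in the WT spleen ones. Rpl22, whose loss in mice blocks the development of αβ T cells, was at 89.2 and 87.6 TPM in the KO adipose libraries, 108 and 132 in the WT adipose libraries, 164 and 191 in the KO spleen ones, and 121 and 280.1 in the WT spleen ones. Rpl22l1 was thus above Rpl22 in 8 of 8 libraries, on the TPM scale. Rps27l, a p53 target in human cells, was at 381 and 367 TPM in the KO adipose libraries, 363 and 305 in the WT adipose libraries, 998 and 435 in the KO spleen ones, and 504 and 419 in the WT spleen ones, with KO spleen library 2 far above the rest. Its log2 fold change between KO and WT spleen was 0.52 ± 0.41 (SE), with a limma adjusted p of 1.0. Rpl7l1 was at 115 and 71.5 TPM in the KO adipose libraries, 93.6 and 68.1 in the WT adipose libraries, 139 and 73.1 in the KO spleen ones, and 107 and 67.6 in the WT spleen ones, where the libraries numbered 2 were the higher ones in each group. Its main copy Rpl7 was at 481 and 508 TPM in the KO adipose libraries, 648 and 669.8 in the WT adipose libraries, 712 and 1058 in the KO spleen ones, and 666 and 1323 in the WT spleen ones, lowest in KO adipose tissue.

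**Figure D5:**
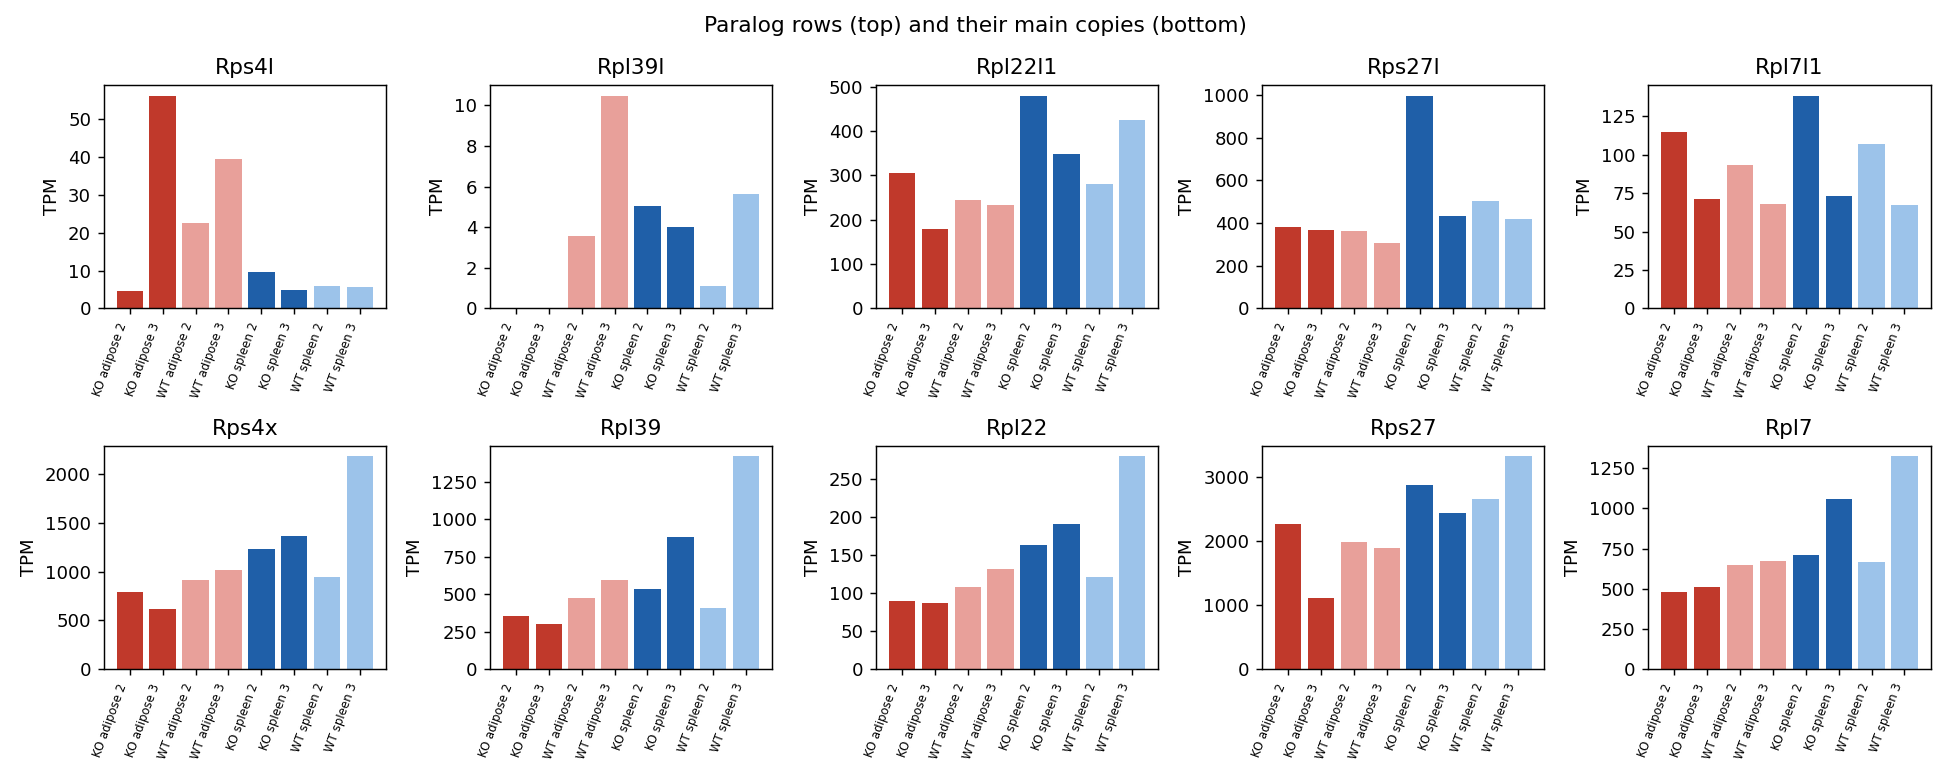
TPM (y axes, each with its own scale from 0) of 5 paralog rows (top) and of their main copies (bottom) in the 8 libraries (x axis, coloured by group). Rps4l is highest in KO adipose library 3 (56.2 TPM), Rpl39l is listed at 0 in both KO adipose libraries, and Rps4x, Rpl39, Rpl22 and Rpl7 are lowest in the 2 KO adipose libraries.

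Genes that act beside the ribosome were read from 4 lists. The 15 translation elongation factors and other genes of TOP mRNAs were below 0 in 15 of 15 cases between KO and WT adipose tissue, with a median log2 fold change of -0.46, and in 15 of 15 between KO adipose tissue and KO spleen, with a median of -0.73, where the medians of all tested genes were -0.27 and 0.16. Between KO and WT spleen 7 of the 15 were below 0. By limma 0 of the 15 were called in any of the 5 contrasts. Eef2, the factor that moves the ribosome along the mRNA, was at 333 and 439 TPM in the KO adipose libraries and 792 and 783 in the WT adipose libraries, a log2 fold change of -1.04 ± 0.43 (SE) with a limma adjusted p of 0.671. Its groups did not overlap. Npm1, a nucleolar chaperone of ribosome assembly, was at 335 and 309 TPM in the KO adipose libraries and 1269 and 788 in KO spleen, a log2 fold change of -1.63 ± 0.37 with a limma adjusted p of 0.1003.

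Initiation factors and assembly factors had medians nearer to 0 than the ribosomal protein genes between KO and WT adipose tissue and between adipose tissue and spleen. Of 30 translation initiation factors 24 were below 0 between KO and WT adipose tissue (median -0.20), and between adipose tissue and spleen 13 were below 0 in WT (median 0.11) and 19 in KO (median -0.35). Eif4b, which stimulates the helicase of the cap complex, was at 31.8 and 44.4 TPM in the KO adipose libraries and 85.7 and 70.5 in the WT adipose libraries, a log2 fold change of -1.03 ± 0.35 (SE) with a limma adjusted p of 0.553. Of 42 genes of ribosome biogenesis and RNA polymerase I 34 were below 0 between KO and WT adipose tissue (median -0.29), and between adipose tissue and spleen 12 were below 0 in WT (median 0.30) and 28 in KO (median -0.15). Nhp2, a protein of the particles that modify ribosomal RNA, was at 124 and 145 TPM in the KO adipose libraries and 598 and 267 in KO spleen, a log2 fold change of -1.57 ± 0.41 with a limma adjusted p of 0.147. Between KO and WT spleen the medians were 0.03 for the initiation factors and 0.14 for the assembly factors, against -0.04 for the ribosomal protein genes. The interaction medians were -0.29 and -0.52, against -0.42. By limma 0 genes of either list were called in any contrast.

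The last list held Myc and genes of mTOR signalling and the p53 response, and most of them had higher values in adipose tissue than in spleen. Of the 21 tested 18 were below 0 between KO and WT adipose tissue (median -0.50), but between adipose tissue and spleen 19 were above 0 in WT (median 0.54) and 16 in KO (median 0.53), against medians of 0.32 and 0.16 over all tested genes, and limma called 0. Mlst8, a subunit shared by both mTOR complexes, was at 13.8 and 11.3 TPM in the KO adipose libraries, 25.2 and 32.1 in the WT adipose libraries, 3.4 and 5.43 in the KO spleen ones, and 5.35 and 4.58 in the WT spleen ones. Its log2 fold change between adipose tissue and spleen was 2.31 ± 0.46 (SE) in WT, with a limma adjusted p of 0.121. Cdkn1a, the p53 target that encodes the cell-cycle inhibitor p21, was at 8.83 and 40.6 TPM in the KO adipose libraries, 42.3 and 88.4 in the WT adipose libraries, 4.99 and 5.08 in the KO spleen ones, and 4.62 and 3.53 in the WT spleen ones, a fold change of 3.62 ± 0.70 between WT adipose tissue and WT spleen with a limma adjusted p of 0.108.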

How the data were processed

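TPM values were deposited by the authors as 1 table with a column per library. The unit was read from the values, as each column sums to 1000000. Mapping was to mm9 per the submitters' processing notes (aligner, counter, annotation: not given in the sources used here). TPM keeps no depth, so no counting interval is given. The 13376 genes reaching 1 TPM in 2 or more libraries were compared on log2(TPM + 1) with limma 3.58.1 (R 4.3.3, variance trend, 4 group means, 4 residual degrees of freedom). The code was run on simulated data with 1 spread per gene in all groups and changes larger than the member medians. In the data the difference between libraries 3 and 2 had an SD over genes of 1.49 in KO adipose tissue and 0.70 in WT spleen. The simulation thus does not show how the fit behaves on these libraries. P-values were adjusted over all tested genes within each of 5 contrasts. Copies were aligned with Biopython 1.88 on GENCODE M21 transcripts; start windows are from RefSeq (GRCm38.p6), matched by symbol. A row's own reads can be split with a copy's by the authors' counting.

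Members and lists were chosen with earlier results of these data known. Named genes were role members, paralogs with their main copies, the 5 highest and 5 lowest levels, the 3 largest and smallest SDs, extreme fold changes and the smallest p of each list; others are marked. Some genes this rule names are not reported here. Same-numbered libraries moved together weakly (r of their differences 0.13 to 0.38 over all 6 pairs of groups). The header names the numbers as experiments, but no label states that they pair the libraries. The main fit holds no pairing, and a fit with the library number as a block is given below. A pseudocount of 0.1 or 5, other filters, scalings and weights, and leaving out each library, were tried. 0 columns were left unused.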

Additional observations from a re-analysis of the deposited data

How the results depend on the processing

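Under 20 alternatives to the fit, among them the summing of identical copies, which was chosen after seeing the data, 0 members were called in any of the 5 contrasts, and the smallest adjusted p of a member was 0.0534 (limma, adipose tissue against spleen in KO, without KO adipose library 2). With the library number as a replicate block the calls stayed at 0 in each contrast; the fold changes are unchanged by construction, since each group holds 1 library of each number. Shares of all tested genes at an unadjusted p under 0.05 are not given here for these alternatives. With the block, the members at an unadjusted p under 0.05 numbered 5 between adipose tissue and spleen in WT and 49 in KO. Without the block they numbered 3 and 39. In the other contrasts this number reached at most 4 over all alternatives between KO and WT adipose tissue, 3 between KO and WT spleen and 8 for the interaction (without WT spleen library 3). Leaving out 1 library at a time gave medians of -0.66 to -0.26 between KO and WT adipose tissue, -0.44 to 0.38 between KO and WT spleen, -0.83 to -0.034 between adipose tissue and spleen in WT, -1.10 to -0.69 in KO, and -0.81 to -0.032 for the interaction. Scaling moved the median of all tested genes: between WT adipose tissue and WT spleen it was 0.32 as deposited, 0.00 after quantile normalization and 0.09 after rescaling without ribosomal protein, hemoglobin and mitochondrial genes, and the members lay 0.80, 0.46 and 0.84 below it. The summed share was 11.0% in WT adipose tissue and 16.2% in KO spleen without hemoglobin and mitochondrial genes, and 10.5% and 13.8% with pseudogene rows added. Without paralogs the SD over members was 1.41 in KO and 1.39 in WT adipose tissue and 1.34 in KO and 1.36 in WT spleen. Without both KO libraries of experiment 2 the log2 fold change in spleen was 0.051 for Rps12 and -0.080 for Rps27l, and the interaction of Rps4l was 1.09, each with the sign turned. Over the single left-out libraries the spleen values ran between -2.33 and 0.051 for Rps12, -0.27 and 1.37 for Rpl39l, and -0.080 and 1.12 for Rps27l, and the interaction of Rps4l between -2.70 and 0.66; the cause was not tested. TPM keeps no read depth, which leaves the precision of low rows such as Rpl39l unknown.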

Other observations

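Mitochondrial ribosomal proteins, which build the separate ribosome inside mitochondria, were read as a second set of 77 genes. Of these 47 had a log2 fold change below 0 between KO and WT adipose tissue, with a median of -0.08, and 64 were above 0 between KO and WT spleen, with a median of 0.25. Between adipose tissue and spleen 46 were below 0 in WT (median -0.10) and 68 in KO (median -0.38). The medians of all tested genes in these 4 contrasts were -0.27, -0.12, 0.32 and 0.16. By limma 0 of the 77 were called in any contrast. Mrps6, a small-subunit protein of the mitochondrial ribosome, was at 108 and 113 TPM in the KO adipose libraries, 55.1 and 66.1 in the WT adipose libraries, 255 and 193 in the KO spleen ones, and 185 and 204 in the WT spleen ones. Its groups did not overlap between tissues, and its log2 fold change between WT adipose tissue and WT spleen was -1.67 ± 0.30 (SE), with a limma adjusted p of 0.0835.

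Transcript length was set beside the fold changes of 77 cytoplasmic members that matched GENCODE. Across genes, which are not independent replicates and share the libraries, Spearman's rho between length and the log2 fold change came to 0.389 between WT adipose tissue and WT spleen, 0.201 between the same tissues in KO, and -0.119 between KO and WT adipose tissue.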
